A study of Mus musculus with 6 samples.

Results

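Zic1, Zic2, Zic4, Zic5, Nkx6-1, Pax2 and Pou3f2 are transcription factor genes of the early nervous system, and their RNA was measured by sequencing in mouse soft palates at embryonic stage E14.5. The 7 genes were picked by symbol from the 49492 gene rows of the deposited table, and all 7 were found. They were chosen from the comparison of Dlx5-/- with control libraries described here, so their differences between the groups are given as a description, with no test. The 3 Dlx5-/- libraries came from embryos without the homeobox gene Dlx5, which acts in the pharyngeal arches, and the 3 control libraries from wild type embryos. The hind part of the palate was dissected whole, and the labels give no strain, construct of the null allele, sex or number of embryos per library, nor do they say that libraries came from separate embryos. P-values therefore measure the spread between these libraries, which may be technical in part.

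The study asks how Dlx5 acts on cranial neural crest cells and muscle precursors during the forming of the oropharynx. Zic proteins are zinc finger transcription factors related to the Gli proteins of Hedgehog signalling, and they act in the dorsal neural tube, neural crest and forebrain midline. Nkx6-1 is a homeodomain repressor that sets progenitor domains in the ventral neural tube. Pax2 is a paired-box factor of the midbrain-hindbrain boundary, inner ear, optic stalk and kidney, and Pou3f2, also called Brn2, is a POU-domain factor of neural progenitors and of the hypothalamus. Of the 7 genes, Nkx6-1 alone is thus a textbook ventral gene, and the group is called here by its gene names.

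Libraries held between 6891798 and 11922442 estimated counts. Dlx5 measured 0.829, 1.63 and 1.28 CPM (counts scaled to a common library size with TMM factors) in Dlx5-/- replicates 1, 2 and 3, against 26.1, 15.7 and 16.2 CPM in control replicates 1, 2 and 3, so every library matched its label. Dlx5-/- replicate 3 stood apart from the rest. Its mean correlation with the other libraries was 0.959, against 0.970 to 0.976 for those, and 13 of 15 mature brain markers were highest in it. Their summed level was 702 CPM in Dlx5-/- replicate 3, 171 and 147 CPM in Dlx5-/- replicates 1 and 2, and 227 to 272 CPM in the controls. Each of the 11 soft palate mesenchyme markers was detected, with Pdgfra, Prrx1 and Col1a1 high in all 6 libraries.

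The Zic genes lie in pairs. Zic1 (chr9:91358058-91365810, minus strand; GENCODE M21 on GRCm38) and Zic4 (chr9:91362413-91389348, plus strand) overlap head to head over 3398 bases, of which 60 are exonic in both. Zic5 (chr14:122456795-122465677, minus strand) and Zic2 (chr14:122475435-122479852, plus strand) point away from each other across 9757 bases. The coding sequences are alike as well. The stretch of 60 coding bases around the longest run that Zic1 and Zic4 share is printed for the 4 Zic genes, since estimated counts may divide reads that fit more than 1 of these genes; capitals mark bases that differ from Zic1 at the same place.
Zic1: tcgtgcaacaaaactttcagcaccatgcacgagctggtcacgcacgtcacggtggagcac
Zic2: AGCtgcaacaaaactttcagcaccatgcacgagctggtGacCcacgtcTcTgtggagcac
Zic4: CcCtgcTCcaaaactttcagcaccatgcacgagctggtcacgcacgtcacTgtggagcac
Zic5: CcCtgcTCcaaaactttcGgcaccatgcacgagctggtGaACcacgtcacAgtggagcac

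Of these 60 bases, Zic4 shared 55 with Zic1, Zic2 shared 53 and Zic5 shared 51. The longest identical coding run was 42 bases between Zic1 and Zic4, 35 between Zic1 and Zic2, 30 between Zic2 and Zic4 and 26 between Zic2 and Zic5. Out of 1317 different 25-base words in the Zic1 coding sequence, 30 recurred in Zic2 and 27 in Zic4. The table lists values with a fraction for Zic1, Zic4 and Zic5, as an estimate that divides reads gives. How reads of a gene and its partner on the other strand were handled is not given in the sources used here. The split between Zic1 and Zic4 is therefore uncertain, while most of each coding sequence is particular to its gene.

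Sequence upstream of the transcription start is shown for Zic1 and Zic5, 1 gene of each pair, to print most of what was searched for motifs. The window of Zic4 lies within annotated exons, and Zic2 is named only. The sequences come from RefSeq on GRCm38.p6, run 5′ to 3′ on the minus strand, end where annotated exons begin, and carry E-boxes (CANNTG, bound by basic helix-loop-helix factors) in capitals.
Zic1 (chr9:91365811-91366018): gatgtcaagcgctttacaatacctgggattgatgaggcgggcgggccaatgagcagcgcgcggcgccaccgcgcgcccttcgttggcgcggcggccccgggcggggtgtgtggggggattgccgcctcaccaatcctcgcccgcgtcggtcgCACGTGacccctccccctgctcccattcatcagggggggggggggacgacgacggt
Zic5 (chr14:122465678-122465908): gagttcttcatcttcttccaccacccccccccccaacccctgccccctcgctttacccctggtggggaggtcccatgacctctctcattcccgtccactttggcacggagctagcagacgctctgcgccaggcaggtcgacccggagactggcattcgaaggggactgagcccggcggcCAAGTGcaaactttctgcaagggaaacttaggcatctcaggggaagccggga

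Windows of 250 bases before the start were searched on both strands for TAATTA, the core bound by Dlx and other homeodomain proteins, for GGGTGGTC, a core of Gli-type sites, and for CANNTG, with no overlap between matches. Windows wholly or mostly outside annotated exons were found for 4 of the 7 genes, Zic1, Zic5, Pax2 and Pou3f2. For Zic1 and Zic5, 208 and 231 bases lay outside and are printed above, but all 250 bases were searched and counted. TAATTA was in 0 of the 4 and in 4.9% of 27025 promoters of all genes, GGGTGGTC in 0 of the 4 and in 0.681% of all, and CANNTG in 3 of the 4 and in 66% of all. The windows held 27 (Zic1), 11 (Zic5), 20 (Pax2) and 18 (Pou3f2) CpG dinucleotides, against a median of 6 over all promoters.

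All 7 genes had a higher mean in Dlx5-/- palates than in controls, with a median log2 fold change of 0.67, against 0.01 over the 16218 genes tested. The 7 passed the filter of at least 1 CPM on average over the 6 libraries, Pax2 and Pou3f2 only through their Dlx5-/- levels. Groups did not overlap for 3 of the 7, Nkx6-1, Pax2 and Pou3f2, a separation in this direction that 9.51% of all genes tested showed and that the choice of genes used. Since the palate was measured in bulk, more cells that express a gene and more RNA per cell cannot be told apart. The Zic genes differed by less between groups than Nkx6-1 and Pax2, and their groups overlapped.

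Zic1, the most studied Zic gene in cerebellum and dorsal neural tube, measured 69.0, 32.7 and 50.9 CPM in Dlx5-/- replicates 1, 2 and 3, against 31.5, 29.8 and 43.4 CPM in control replicates 1, 2 and 3. Dlx5-/- replicates 1 and 3 lay above every control, and Dlx5-/- replicate 2 lay among the controls. The mean was 50.9 ± 18.2 CPM in Dlx5-/- and 34.9 ± 7.40 CPM in controls (SD, n = 3 each), with a log2 fold change of 0.55 (SE 0.26). Without Dlx5-/- replicate 1 the log2 fold change was 0.27.

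Zic2, mutations of which cause holoprosencephaly, measured 52.6, 33.0 and 36.0 CPM in Dlx5-/- replicates 1, 2 and 3, against 34.8, 29.0 and 32.2 CPM in the controls. Its replicate 1 of the Dlx5-/- group was high and the other libraries of both groups lay close together. The log2 fold change was 0.34 (SE 0.17), and 0.11 without Dlx5-/- replicate 1. Zic5, the neighbour of Zic2, measured 21.7, 13.3 and 11.1 CPM in Dlx5-/- libraries, against 10.1, 10 and 15.1 CPM in controls. Only Dlx5-/- replicate 1 exceeded the highest control. Its log2 fold change was 0.39 (SE 0.28), and 0.06 without that library.

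Zic4, the neighbour of Zic1, measured 9.19, 4.46 and 7.11 CPM in Dlx5-/- libraries, against 5.29, 2.85 and 5.08 CPM in controls. As for Zic1, Dlx5-/- replicates 1 and 3 lay above the controls and replicate 2 among them. The log2 fold change was 0.67 (SE 0.34), and 0.42 both without Dlx5-/- replicate 1 and without control replicate 2. Within a library, Zic1 exceeded Zic4 by 7.51, 7.34 and 7.15 times in Dlx5-/- replicates 1, 2 and 3, and by 5.96, 10.5 and 8.54 times in the controls. Zic2 exceeded Zic5 by 2.42, 2.49 and 3.23 times in Dlx5-/- and by 3.43, 2.89 and 2.13 times in controls. Neither ratio separated the groups.

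Summed over the 4 Zic genes, the level was 153, 83.5 and 105 CPM in Dlx5-/- replicates 1, 2 and 3, against 81.7, 71.6 and 95.8 CPM in the controls. Dlx5-/- replicates 1 and 3 lay above every control, and Dlx5-/- replicate 2 lay among them. Dlx5-/- replicate 1 had the highest level of all 4 Zic genes, and its sum of mature brain markers was below each control. In Dlx5-/- replicate 2 none of the 4 was above every control. Without Dlx5-/- replicate 3 the log2 fold changes were 0.55 for Zic1, 0.42 for Zic2, 0.65 for Zic4 and 0.58 for Zic5. The part of the brain transcripts of that library in the Zic levels was not tested.

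**Figure D1:**
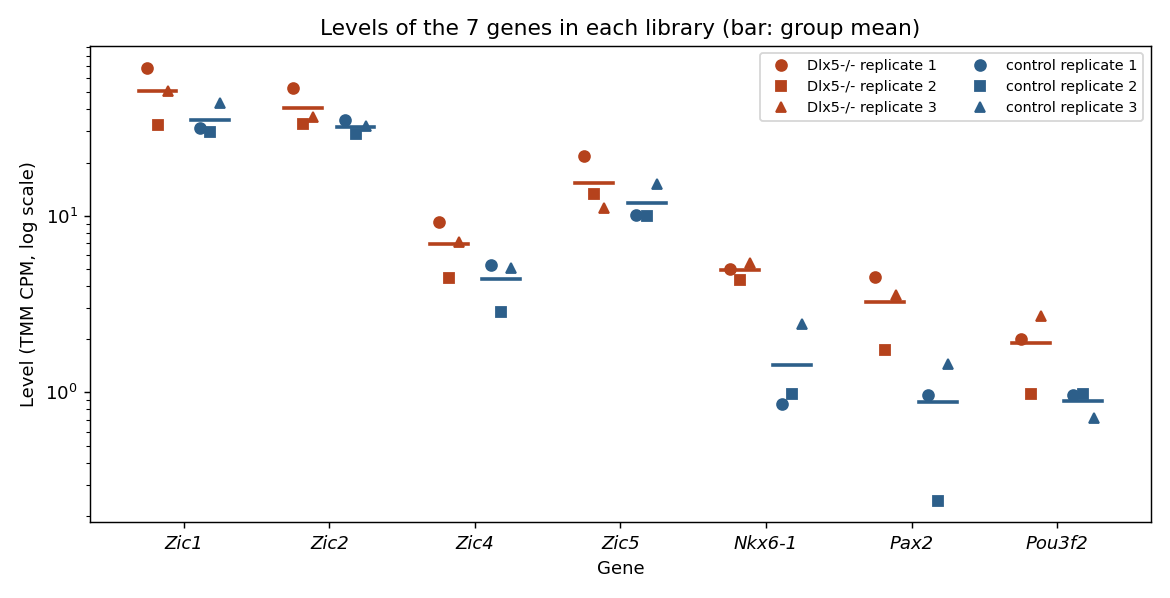
Level of each of the 7 genes in every library (TMM-scaled CPM, log axis), Dlx5-/- left and control right, with symbols for replicates and a bar for the group mean. The groups overlapped for the Zic genes, while all Nkx6-1 values were 4.35 CPM or more in Dlx5-/- and 2.44 CPM or less in controls.

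**Figure D2:**
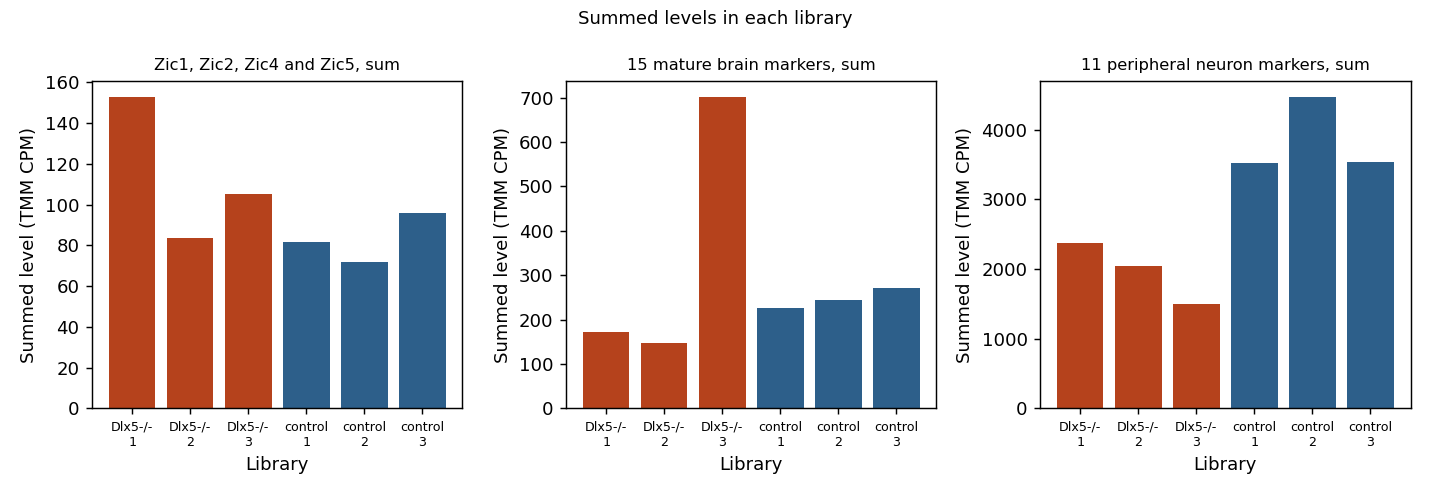
Summed level in each library (TMM-scaled CPM) of the 4 Zic genes, of 15 mature brain markers and of 11 peripheral neuron markers, Dlx5-/- in orange and control in blue. The Zic sum was highest in Dlx5-/- replicate 1 at 153 CPM, whereas the mature brain sum was highest in Dlx5-/- replicate 3 at 702 CPM.

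Nkx6-1 (chr5:101658139-101664996, minus strand) had the narrowest relative spread among Dlx5-/- libraries of the 7 genes. It had 42, 40 and 72 estimated counts in Dlx5-/- replicates 1, 2 and 3, against 8, 12 and 17 in the controls. These came to 4.97, 4.35 and 5.43 CPM in Dlx5-/-, against 0.864, 0.974 and 2.44 CPM in controls. All Dlx5-/- libraries lay above all controls, replicate 2 included, and control replicate 3 was the highest control. The mean was 4.92 ± 0.545 CPM in Dlx5-/- and 1.43 ± 0.882 CPM in controls (SD, n = 3 each), with a log2 fold change of 1.84 (SE 0.42). It ran from 1.58 to 2.4 with 1 library left out and was 1.76 without Dlx5-/- replicate 3.

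Pax2 (chr19:44756045-44837871, plus strand) had 38, 16 and 47 estimated counts in Dlx5-/- replicates 1, 2 and 3, against 9, 3 and 10 in the controls. Levels were 4.50, 1.74 and 3.55 CPM in Dlx5-/-, against 0.972, 0.244 and 1.44 CPM in controls. The groups did not overlap, but Dlx5-/- replicate 2 was close to control replicate 3. The log2 fold change was 1.95 (SE 0.62), and lay between 1.44 and 2.46 when any 1 library was omitted. With 22 counts in all controls, the depth sets the size of this difference only loosely.

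Pou3f2 (chr4:22482780-22488366, minus strand) had 17, 9 and 36 estimated counts in Dlx5-/- replicates 1, 2 and 3, against 9, 12 and 5 in the controls. Levels were 2.01, 0.978 and 2.72 CPM in Dlx5-/-, against 0.972, 0.974 and 0.719 CPM in controls. Dlx5-/- replicate 2 could hardly be told from the controls, and scaled by library totals without TMM factors it measured 0.854 CPM, against 0.942, 1.01 and 0.726 CPM in controls, so that only 2 of the 7 genes kept groups apart on that scale. The log2 fold change of 1.09 (SE 0.48) was 0.71 (SE 0.55) without Dlx5-/- replicate 3, the library with brain transcripts, whose part in the value was not tested.

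**Figure D3:**
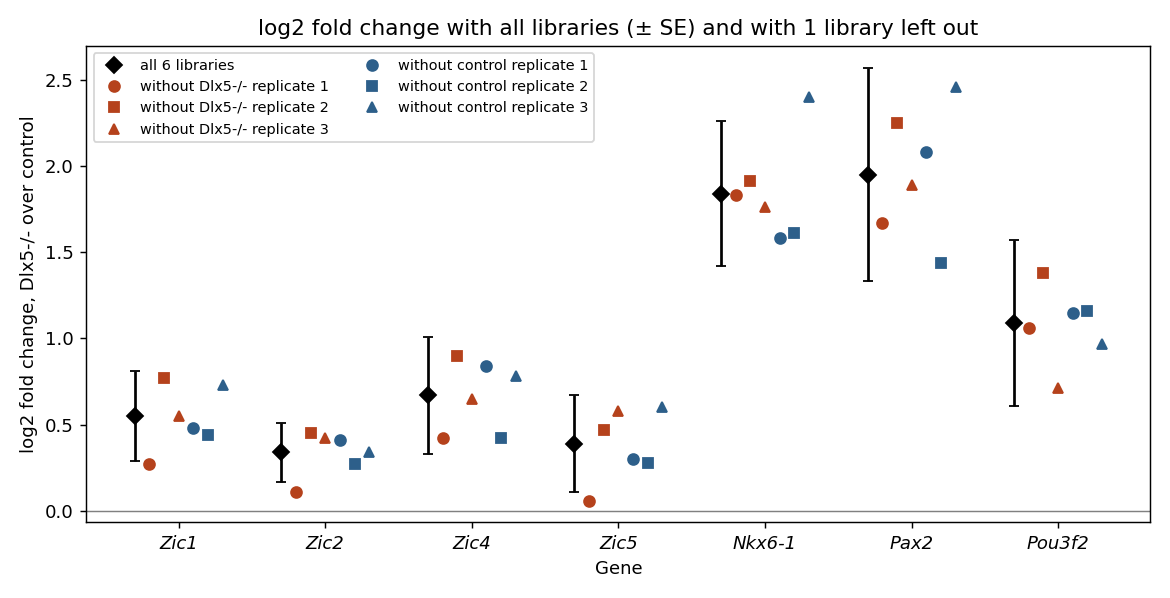
log2 fold change of each gene, Dlx5-/- over control, with all 6 libraries (black, bars are ± 1 SE) and with 1 library left out (orange for a Dlx5-/- library, blue for a control). Every estimate was above 0, but those of Zic2 and Zic5 came down to 0.11 and 0.06 without Dlx5-/- replicate 1.

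Across the 3 Dlx5-/- libraries, replicate 1 was the highest for 5 of the 7 genes and replicate 2 the lowest for 6. Relative to the control mean, the median of the 7 genes was 1.06, 0.14 and 0.69 on the log2 scale in Dlx5-/- replicates 1, 2 and 3. All 7 genes lay above every control in replicate 1, 6 did in replicate 3 and 3 did in replicate 2. Dlx5-/- replicate 2 was also the library with the highest skeletal muscle markers, with a sum over 10 genes of 3427 CPM, against 1215 and 2093 CPM in Dlx5-/- replicates 1 and 3 and 1059 to 1853 CPM in controls; a part of this in the levels was not tested.

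Levels were compared between genes per kilobase of exon. In Dlx5-/- libraries the order was Zic2 (14.1 ± 3.66 CPM per kilobase), Zic1 (8.94 ± 3.19), Zic5 (3.14 ± 1.14), Nkx6-1 (1.57 ± 0.174), Zic4 (0.670 ± 0.230), Pax2 (0.603 ± 0.259) and Pou3f2 (0.341 ± 0.156; SD, n = 3 each). In controls it was the same, with Zic2 at 11.1 ± 1.01, Zic1 at 6.13 ± 1.30, Zic5 at 2.4 ± 0.593, Nkx6-1 at 0.455 ± 0.281, Zic4 at 0.426 ± 0.131, Pax2 at 0.163 ± 0.111 and Pou3f2 at 0.159 ± 0.0263 CPM per kilobase. In controls Nkx6-1 and Zic4 overlapped, as did Pax2 and Pou3f2, whereas Zic2, Zic1 and Zic5 did not overlap one another. In Dlx5-/- libraries Nkx6-1 lay above Zic4 in all 3, at 1.39 to 1.73 against 0.431 to 0.890 CPM per kilobase. Zic2 and Zic1 overlapped there, and so did Zic4, Pax2 and Pou3f2.

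The genes whose levels followed each member most closely over the 6 libraries were found by the root mean square distance between centred log2(CPM + 1) profiles among 16218 genes, a description that gives nothing on shared function. Zic1 was nearest to Trex1 (0.164), Gpr65 (0.173) and Cyp2j9 (0.174), and its neighbour Zic4 ranked 13 of 16217. Zic2 was nearest to Ttc12 (0.0714), Zic4 to Dtwd2 (0.145) and Zic5 to Hist2h2aa1 (0.114). Nkx6-1 was nearest to Ccl28 (0.293), with Rnf128 at 0.297, and Pax2 ranked 13 from it. Pax2 was nearest to Lmx1b (0.284), with Zic4 at rank 13 and Nkx6-1 at rank 14, and Pou3f2 to Slco1c1 (0.0930) and S1pr5 (0.121).

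The genes next to the 7 on the chromosomes did not pass the test. Of 10 distinct neighbouring protein-coding genes other than Zic genes, 6 were tested, with log2 fold changes of -0.10 to 0.38 and a smallest adjusted p of 0.379 (edgeR quasi-likelihood). At an unadjusted p under 0.05 there was 1, Fam178a beside Pax2, with 86.1 ± 16.8 CPM in Dlx5-/- and 68.9 ± 4.72 CPM in controls (SD, n = 3 each). Tbc1d2b, beyond Zic1, measured 56.2 ± 5.44 CPM in Dlx5-/- and 49.5 ± 1.99 CPM in controls (SD, n = 3 each). Hif1an, an asparagine hydroxylase gene beside Pax2, measured 47.6 ± 5.70 CPM in Dlx5-/- and 42.6 ± 2.12 CPM in controls.

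Relatives of the 7 genes were taken from 5 lists with 91 genes, of which 57 passed the filter. By edgeR's quasi-likelihood test adjusted over all genes, 0 of the 57 were higher and 0 lower, against 0% higher and 0.00617% lower (Dlx5 alone) over all genes tested. At an unadjusted p under 0.05, 14 of the 57 were higher and 8 lower, where 5.6% of all genes tested were higher and 7.23% lower. Groups did not overlap for 14 higher and 8 lower relatives, against 9.51% and 9.74% of all genes tested. Foxa2 and Hmx2, which passed the filter only through their Dlx5-/- levels, are in both counts of 14 higher relatives. Without Dlx5-/- replicate 3, 11 relatives were higher and 11 lower at an unadjusted p under 0.05, against 5.24% and 8.27% of all genes. Their median log2 fold change was 0.15, and -0.01 without that library.

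Among the Gli genes, relatives of the Zic genes and effectors of Hedgehog signalling, Gli3 measured 108 ± 7.42 CPM in Dlx5-/- and 86.0 ± 2.13 CPM in controls (SD, n = 3 each), with a log2 fold change of 0.32 (adjusted p = 0.133, edgeR). Gli2 had an estimate of 0.24 and Glis1 one of 1.06, and neither passed. Gli1, a direct target of the pathway, measured 22.1, 24.0 and 19.5 CPM in Dlx5-/- libraries and 26.1, 21.3 and 23.0 CPM in controls, and its groups overlapped.

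Of 25 other factors of the ventral neural tube, 15 were tested, with a median of 0.02. At an unadjusted p under 0.05, 4 were higher and 3 lower, where 5.6% of all genes tested were higher and 7.23% lower. Without Dlx5-/- replicate 3, 3 were higher and 5 lower, against 5.24% and 8.27% of all genes, and the list median was -0.46. Of the 25 genes, 7 stayed under 1 CPM in every library. Among these, Nkx2-2 of ventral progenitors reached at most 0.377 CPM in any library and Mnx1 of motor neurons 0.431 CPM. The progenitor gene Pax6 was present, at 0.981 to 2.01 CPM in Dlx5-/- libraries and 1.94 to 3.02 CPM in controls. Olig2, which was not tested, had 1, 0 and 18 estimated counts in Dlx5-/- replicates 1, 2 and 3 and 0, 1 and 10 in the controls. It reached 1.36 CPM in Dlx5-/- replicate 3, the library with brain transcripts, and 1.44 CPM in control replicate 3. The floor-plate gene Foxa2 measured 1.30, 2.17 and 3.85 CPM in Dlx5-/- libraries, against 0.864, 0.812 and 1.15 CPM in controls. With a control mean of 0.942 CPM, Foxa2 passed the filter only through its Dlx5-/- levels. It is among the 4 counted as higher, so that count rests in part on the filter. Gata3, which also acts in the inner ear and in sympathetic neurons, measured 37.9, 17.9 and 37.5 CPM in Dlx5-/-, against 17.1, 2.52 and 2.59 CPM in controls (log2 fold change 2.07, SE 0.66; adjusted p = 0.229, edgeR). Its control replicate 1 was nearly as high as Dlx5-/- replicate 2, and without that control the estimate was 3.61 (adjusted p = 0.0656, edgeR). Gata3 did not pass with any library left out, and was at 1.62 without control replicate 2 (adjusted p = 0.55, edgeR). Irx3 had a log2 fold change of 1.16 (SE 0.32) and Gata2 of 0.87 (SE 0.24). Isl1, a factor of motor and sensory neurons, measured 65.7, 45.2 and 49.2 CPM in Dlx5-/-, against 81.8, 100.3 and 78.8 CPM in controls (log2 fold change -0.71, SE 0.15; adjusted p = 0.0939, edgeR).

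Of 24 dorsal neural tube factors, 13 were tested, with 3 higher and 1 lower at an unadjusted p under 0.05. The shares over all genes tested were 5.6% higher and 7.23% lower. Lmx1a, a LIM homeobox gene of the roof plate, measured 8.76, 6.41 and 7.77 CPM in Dlx5-/- libraries, against 2.48, 2.52 and 2.30 CPM in controls. The groups were far apart and narrow. Their difference of 1.64 (log2, SE 0.23) just missed the threshold (adjusted p = 0.0532, edgeR), and without Dlx5-/- replicate 3 Lmx1a rose by 1.62 (adjusted p = 0.0378, edgeR). With any other library left out Lmx1a did not pass, and its adjusted p was 0.236 (edgeR) without control replicate 2. Lmx1b, its paralog, measured 6.63, 1.85 and 3.62 CPM in Dlx5-/-, against 1.19, 1.06 and 1.29 CPM in controls. Its order over the Dlx5-/- libraries, with replicate 1 highest and replicate 2 lowest, was that of Pax2. Of the 24 dorsal genes, 7 stayed under 1 CPM in every library, among them Olig3, Wnt1, Wnt3a and Atoh1. Others, which tissues outside the neural tube also express, were well above it, with Msx1 at 7.82 to 15.9 CPM in Dlx5-/- libraries and 8.10 to 29.0 CPM in controls.

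Of 18 relatives and partners of Pax2 in the ear, eye, kidney and midbrain-hindbrain boundary, 8 were tested, and 3 were higher and 0 lower at an unadjusted p under 0.05. The shares over all genes tested were 5.6% higher and 7.23% lower. The median of the list was 0.67, and 0.62 without Dlx5-/- replicate 3. Hmx2, a homeobox gene of the inner ear and hypothalamus, measured 1.78, 1.85 and 2.11 CPM in Dlx5-/- libraries, against 0.432, 0.325 and 0.287 CPM in controls (log2 fold change 2.41, SE 0.44). It is among the 3 counted as higher. With 10 counts in all controls, Hmx2 passed the filter only through its Dlx5-/- levels, so its p-value is not given. Eya1, a transcriptional cofactor and phosphatase, measured 58.3 ± 6.25 CPM in Dlx5-/- and 39.3 ± 7.53 CPM in controls (SD, n = 3 each). Its partner gene Six2 had an estimate of -0.15 with groups that overlapped. The closest relatives of Pax2, Pax5 and Pax8, were under 1 CPM in all libraries, as were En2, Fgf8 and Gbx2 of the midbrain-hindbrain boundary.

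Of 19 POU and neural progenitor factors, 16 were tested, with 2 higher and 5 lower at an unadjusted p under 0.05. The shares over all genes tested were 5.6% higher and 7.23% lower. The median of the list was 0.02, and -0.45 without Dlx5-/- replicate 3. Of the class III POU relatives of Pou3f2, Pou3f1 averaged 1.94 CPM in Dlx5-/- and 1.11 CPM in controls and had 4.23 CPM in Dlx5-/- replicate 3. Pou3f4, a gene of ear and neural tube mesenchyme and brain, measured 54.4, 32.2 and 42.0 CPM in Dlx5-/- libraries, against 20.5, 6.74 and 3.45 CPM in controls (log2 fold change 2.05, SE 0.50; adjusted p = 0.133, edgeR). Pou3f3, also called Brn1, measured 64.9, 61.7 and 67.1 CPM in Dlx5-/-, against 46.6, 20.1 and 24.1 CPM in controls (log2 fold change 1.09, SE 0.27; adjusted p = 0.133, edgeR). For both genes all Dlx5-/- libraries lay above all controls, and control replicate 1 was the highest control. Without control replicate 1, Pou3f3 rose by 1.56 on the log2 scale (adjusted p = 0.0114, edgeR). It did not pass with any other library left out, and was at 0.86 without control replicate 2 (adjusted p = 0.388, edgeR). Myt1l, a neuronal zinc finger factor, measured 33.7 ± 2.45 CPM in Dlx5-/- and 63.8 ± 8.77 CPM in controls (SD, n = 3 each; adjusted p = 0.0527, edgeR). It passed without Dlx5-/- replicate 3 (adjusted p = 0.0307, edgeR) and with library totals (adjusted p = 0.0450, edgeR). DESeq2, limma-trend, no filter and a filter of 5 CPM, which called more genes over the whole table, passed it too. With median-of-ratios scaling, without rRNA rows or with a replicate block it did not pass. With any other library left out Myt1l did not pass, and its adjusted p was 0.224 (edgeR) without control replicate 2. Insm1, a zinc finger factor of neuronal and endocrine precursors, measured 6.25 ± 0.849 CPM in Dlx5-/- and 10.2 ± 1.16 CPM in controls (SD, n = 3 each; adjusted p = 0.157, edgeR). Neurod1, of the same list, had an estimate of -0.01. Peripheral neuron markers were lower as well: 10 of 11 were lower in all Dlx5-/- libraries than in any control, a separation that 9.74% of all genes tested showed. The summed level of these markers was 2379, 2044 and 1505 CPM in Dlx5-/- replicates 1, 2 and 3, against 3525, 4476 and 3541 CPM in controls. Their part in the values was not tested.

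**Figure D4:**
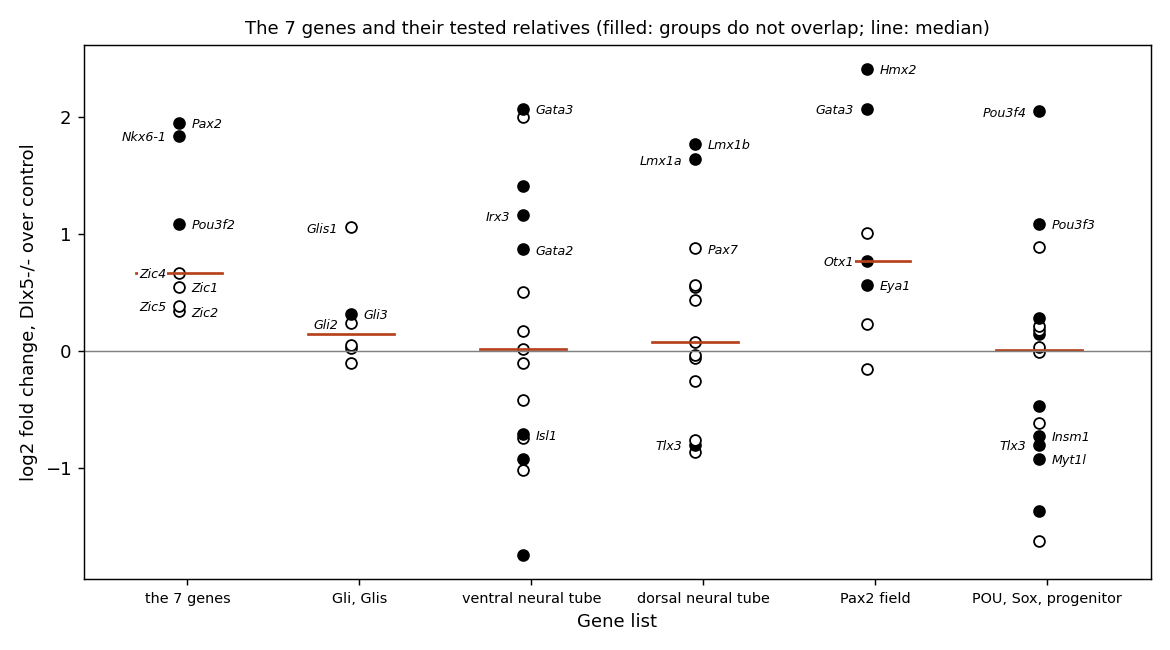
log2 fold change, Dlx5-/- over control, of the 7 genes and of most tested genes of 5 lists of relatives (some are not drawn); a filled point marks groups that do not overlap and a line the median of the points drawn. Hmx2 (2.41, with 10 counts in all controls), Gata3 (2.07) and Pou3f4 (2.05) had the highest estimates. Medians of the ventral, dorsal and POU lists lay near 0 with all 6 libraries, but at -0.46, -0.02 and -0.45 without Dlx5-/- replicate 3.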

How the data were processed

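RNA-seq libraries of 3 Dlx5-/- and 3 control soft palates were used. Per the labels' protocols, RNeasy columns served for the RNA and a TruSeq mRNA kit for the libraries. STAR 2.4.1d, Partek and build mm10 are named, per the submitters' processing notes. Annotation, counting and strandedness: not given in the sources used here. The deposited table holds estimated counts for 49492 genes. It calls itself normalized, but its column sums differ, and 64.5% of values above 0.5 are whole within 0.001. In addition, 1 column that its header calls wild type matches no labelled sample and stayed unused, so a possible further control is left out.

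Counts were rounded, and genes with a mean of at least 1 CPM (16218) were tested with edgeR 4.0.16 in R 4.3.3 (quasi-likelihood, TMM, no block, Benjamini-Hochberg at 0.05). SEs come from the F statistic. The code was tested on simulated data. Alternatives used DESeq2 1.42.0, limma 3.58.1, other scalings and filters, a replicate block and each library left out. Gene models are those of GENCODE M21 (GRCm38, which is mm10); RefSeq synonyms matched 2 neighbours listed under older symbols, and lengths may differ from those of the annotation used for counting. No protein sequences were used here. Figures were drawn with matplotlib 3.10.9.

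The members, lists and tests were chosen with earlier results of these data known. Named genes are the 7 members, Dlx5, up to 4 genes with the smallest p from each list, the 3 nearest in profile, chromosome neighbours, and markers where 1 library differs; other listed genes were named after their values were seen. Some listed genes are counted but not reported by name here, nor drawn.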

Additional observations from a re-analysis of the deposited data

How the results depend on the processing

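Over 14 alternatives the estimates of Zic1, Zic2, Zic4 and Zic5 stayed above 0, as did those of Nkx6-1, Pax2 and Pou3f2 over the 13 that tested them (a filter of 5 CPM removed these 3). The median of the 7 genes ran from 0.42 to 0.90, both ends from libraries left out. With log2(CPM + 1) in limma-trend, Nkx6-1 was at 1.34, Pax2 at 1.17 and Pou3f2 at 0.58, as a pseudocount lowers the change of low genes.

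Counts over all genes were unstable, and the cause was not tested. In place of 1 gene (0 higher, 1 lower), library totals gave 41 (41 lower), DESeq2 501 (118 higher, 383 lower), limma-trend 97 (9 higher, 88 lower), no filter 679 (244 higher, 435 lower) and a filter of 5 CPM 74 (6 higher, 68 lower). With 1 library left out there were 0 to 164 (0 to 12 higher, 0 to 152 lower), with 164 without Dlx5-/- replicate 3 and 0 without control replicate 3, Dlx5-/- replicate 1 or Dlx5-/- replicate 2. In these fits the adjusted p of Dlx5 (edgeR) was 0.107, 0.0949 and 0.0631. Of the listed relatives, in place of 0, library totals called 1, DESeq2 7, limma-trend 2, no filter 13, and the filter of 5 CPM 2, with 0 to 2 over libraries left out. At an unadjusted p under 0.05, the filter of 5 CPM left 9 higher and 5 lower relatives and no filter 13 lower, with 11 to 14 higher and 5 to 11 lower over libraries left out (5 without control replicate 2).

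With the replicate number as a block, 0 genes passed (Dlx5 adjusted p = 0.0620, edgeR) and Zic1 was at 0.50. Same-numbered libraries did not deviate together (correlations of -0.014, -0.011 and 0.020). With 3 libraries per group this cannot settle whether the numbers pair them, and the labels do not say. Pax2 and Pou3f2 rest on 22 and 26 counts in all controls, which limits their precision. On library totals, 2 of the 7 genes kept groups apart, an alternative chosen after seeing the data.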

Other observations

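Forebrain and eye regulators among the embryonic brain progenitor markers differed in direction. Otx2 of the forebrain and midbrain measured 8.29, 1.85 and 3.02 CPM in Dlx5-/- libraries, against 2.16, 1.54 and 0.719 CPM in controls, and was highest in Dlx5-/- replicate 1. Six6, a homeobox gene of eye and pituitary, went the other way, at 2.22, 8.26 and 1.58 CPM in Dlx5-/- and 14.6, 28.1 and 19.8 CPM in controls, with groups that did not overlap. These genes were named after their values had been seen.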
